A study of Oryza sativa with 12 samples.

Results

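The loci described here are the 106 long non-coding RNA (lncRNA) loci of rice for which the deposited tables list exactly 2 transcripts, both placed in the same class. The rule that chose them used these identifiers and classes alone and no measured value, though earlier results of these data were known. Of the 106 loci, 44 hold 2 lincRNAs and 62 hold 2 antisense lncRNAs, so they contribute 212 of the 1485 transcripts and 106 of the 1039 loci in the tables. A further 5 loci list 2 transcripts of different classes, 828 list 1 transcript and 100 list 3 or more. RNA came from leaves of the cultivars Dongnong422 and Kongyu131, sampled at booting, the stage before the panicle emerges from the leaf sheath. The 4 groups of 3 libraries were Dongnong422 cold, Dongnong422 control, Kongyu131 cold and Kongyu131 control. Cold plants stood in an incubator at 17 °C for 13 days with 16 h of light and 8 h of dark. The labels attach that protocol to control libraries too and say that all plants grew in the natural environment, so the temperature of the controls is not stated and cold cannot be told apart from the incubator. A leaf was taken per bucket. The labels do not say that the 3 libraries of a group came from separate plants, so the tests below compare groups against a spread that could be partly technical.

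A lincRNA is transcribed from a region between protein-coding genes, and an antisense lncRNA from the strand opposite a gene. Such a locus can yield more than 1 RNA through another start site, another splice pattern or another end, and the products share much of their sequence. A short read from the shared stretch cannot be placed on either RNA by itself, so the level of each transcript of a locus is an estimate, while the sum over both depends less on that division. The tables pair no identifier with a gene name, position or sequence, so the loci are called by their identifiers and no function, neighbour or opposite gene is given for any of them.

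All values are FPKM, a fragment count scaled by transcript length and by the size of the library. Across the 12 libraries the median over all listed lncRNAs ran between 0.50 and 0.68 FPKM, and the depth behind a value is unknown because the tables hold no counts. In each library 6 to 14 of the 212 transcripts were listed at exactly 0, and a further 16 to 28 had a value above 0 but under 0.001 FPKM. The tables list lncRNAs only, so the leaf label was not checked against leaf marker genes, and in whole leaves fewer cells of a type and less RNA per cell cannot be told apart.

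Most of the loci were listed at low FPKM. The mean locus sum over the 12 libraries had a median of 0.973 FPKM and ran between 0.185 and 36.2 FPKM, with 49 loci at 1 FPKM or more. The median was 0.801 FPKM for the 44 lincRNA loci and 0.985 FPKM for the 62 antisense loci. In the tables' loci with 1 transcript, it was 1.37 FPKM for lincRNAs and 0.955 FPKM for antisense lncRNAs. The highest lincRNA loci were XLOC_007274 at 36.2, XLOC_000862 at 10.4, XLOC_045020 at 6.68 and XLOC_031871 at 5.58 FPKM. The highest antisense loci were XLOC_018670 at 28.5, XLOC_008199 at 22.7, XLOC_022708 at 5.70 and XLOC_002746 at 4.45 FPKM. Of these 8 loci, XLOC_007274, XLOC_018670 and XLOC_008199 owed their rank to Dongnong422 libraries.

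By mean FPKM, neither transcript was close to being the sole product in most loci. Taking the mean FPKM over the 12 libraries, the leading transcript (the higher of the pair) made up a median of 66.1% of the locus sum, and between 50.3% and 96.9%. The transcript with the lower identifier number led in 53 of the 106 loci, 27 of 44 lincRNA loci and 26 of 62 antisense loci. The 90 loci with a mean sum of at least 0.5 FPKM, 38 lincRNA and 52 antisense, were used for statements about the division between transcripts. Among them the leading transcript held a median of 65.5% in lincRNA loci and 69.2% in antisense loci. It held 80% or more in 17 loci (7 lincRNA, 10 antisense) and under 60% in 30 loci (12 lincRNA, 18 antisense). Single libraries were more one-sided than these means: in each, 26 to 38 of the 90 loci had a transcript at 80% or more. In 13 to 24 of the 90 loci per library, 1 transcript was under 0.001 FPKM and the other was not. The loci just inside the 0.5 FPKM limit were XLOC_053854, XLOC_049793 and XLOC_044813 at 0.527 to 0.529 FPKM, and those just outside were XLOC_028876 at 0.496 and XLOC_019565 at 0.494 FPKM.

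**Figure D1:**
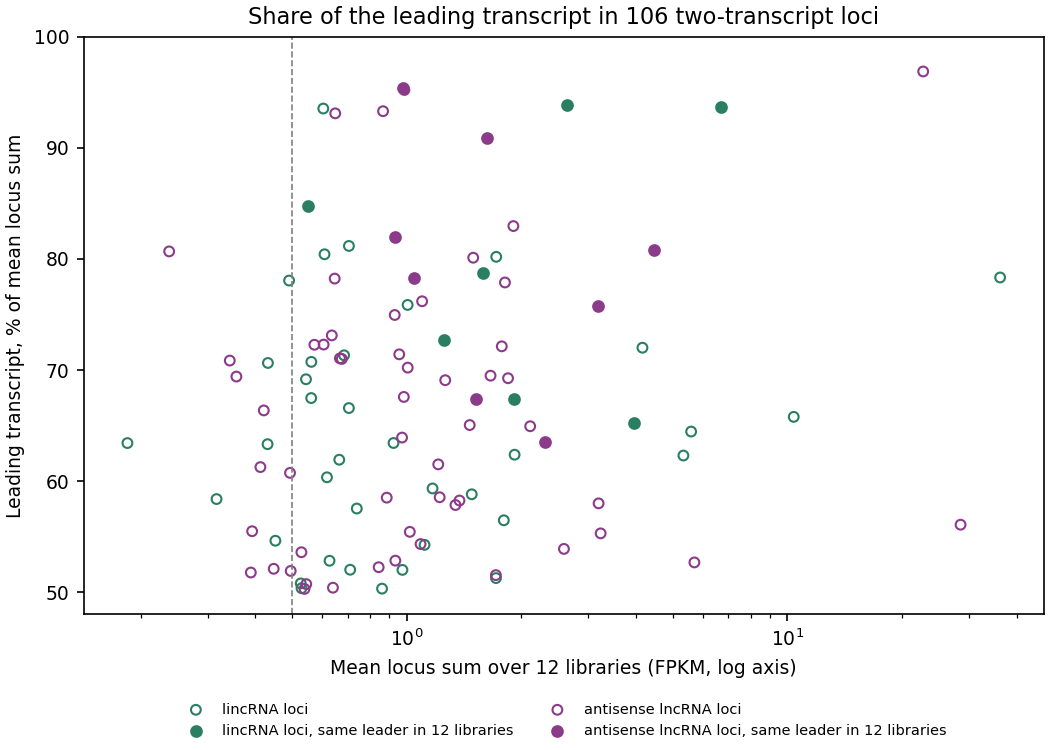
Each point is 1 of the 106 loci. The x axis is the mean locus sum in FPKM on a log axis, the y axis the leading transcript's percentage of the mean sum, colours give the class, filled points the 15 loci whose leading transcript was the same in all 12 libraries, and the dashed line marks 0.5 FPKM. Right of the dashed line shares spread between 50.3% and 96.9%, and filled points occur in both classes.

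A leading transcript by mean was seldom the leading transcript in every library. The same transcript led in all 12 libraries in 15 of the 90 loci (7 lincRNA, 8 antisense), in 11 libraries in 19 loci, in 10 libraries in 11 loci and in 9 or fewer in 45 loci. Counting only libraries in which the locus reached 0.1 FPKM, the leader was the same throughout in 18 loci. One transcript held at least 80% in each of the 12 libraries in 3 loci, the lincRNA locus XLOC_045020 and the antisense loci XLOC_021018 and XLOC_044438.

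XLOC_045020 was the most abundant of these 3. Its transcript LNC_001171 had 6.37, 9.07 and 5.78 FPKM in Dongnong422 cold and 5.86, 4.75 and 3.97 FPKM in Dongnong422 control libraries. In Kongyu131, LNC_001171 had 10.6, 11.3 and 4.62 FPKM in cold and 4.43, 3.85 and 4.54 FPKM in control libraries. The other transcript, LNC_001172, stayed at or below 1.38 FPKM in all 12. The locus sum averaged 7.27 ± 1.67 FPKM in Dongnong422 cold, 5.43 ± 1.66 in Dongnong422 control, 9.29 ± 3.48 in Kongyu131 cold and 4.75 ± 0.45 FPKM in Kongyu131 control (SD, n = 3 each), and its cold difference of 0.66 on the log2 scale did not pass the test (limma, Benjamini-Hochberg adjusted p = 0.0685). In XLOC_002746, the highest antisense locus with a constant leader, LNC_000040 ran between 2.39 and 4.83 FPKM and LNC_000041 between 0.619 and 1.19 FPKM, so the ranges of the 2 transcripts did not meet in any group. In the lincRNA locus XLOC_026496, LNC_000699 held 93.8% of the mean and ran between 1.40 and 3.95 FPKM, and LNC_000700 stayed at or below 0.691 FPKM.

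At the other end, some loci were divided evenly on average because the leader alternated between libraries. The antisense locus XLOC_022708 had an average division of 52.7% for LNC_000602. In Dongnong422 cold libraries its transcript LNC_000601 had 3.81, 0.00679 and 2.20 FPKM, and LNC_000602 had 0.000897, 3.06 and 1.91 FPKM. In Kongyu131 control libraries LNC_000601 had 0.00369, 4.15 and 3.31 FPKM, and LNC_000602 had 9.06, 2.88 and 2.81 FPKM. Within Dongnong422 cold, then, 1 library gave nearly all FPKM to a transcript that another library of the group listed near 0. Within Kongyu131 control, LNC_000601 was near 0 in 1 library and the higher transcript in the others, where LNC_000602 was not near 0. The sums of the same libraries differed less, 3.81, 3.07 and 4.10 FPKM in Dongnong422 cold and 9.06, 7.03 and 6.12 FPKM in Kongyu131 control.

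The same exchange was seen in other loci. Each of the 2 transcripts held at least 80% of the sum in some library in 20 of the 90 loci (10 lincRNA, 10 antisense), and in 14 of them (7 lincRNA, 7 antisense) both extremes occurred among the 3 libraries of a single group. XLOC_027439, a lincRNA locus, belonged to the 14, although its mean gave LNC_000725 80.2%. In Kongyu131 cold libraries LNC_000725 had 1.05, 2.16 and 0.000329 FPKM, and LNC_000724 had 0.224, 1.11 and 0.413 FPKM. An even mean could also come from an even division in each library: in the lincRNA locus XLOC_018344, LNC_000484 ran between 0.386 and 0.797 FPKM and LNC_000485 between 0.351 and 0.912 FPKM. In other loci with an even mean the leader alternated. In the antisense locus XLOC_057204, with 51.5% for LNC_001460 on the mean, each transcript led in 6 libraries. There LNC_001459 ran between 0.0799 and 2.18 FPKM and LNC_001460 between 0.508 and 1.22 FPKM. XLOC_020996, another antisense locus, had 53.9% for LNC_000550, which ran between 0.0770 and 2.47 FPKM, and LNC_000549 between 0.577 and 1.53 FPKM. LNC_000549 led in 5 libraries and LNC_000550 in 7. In 13 loci neither transcript reached 80% in any library.

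**Figure D2:**
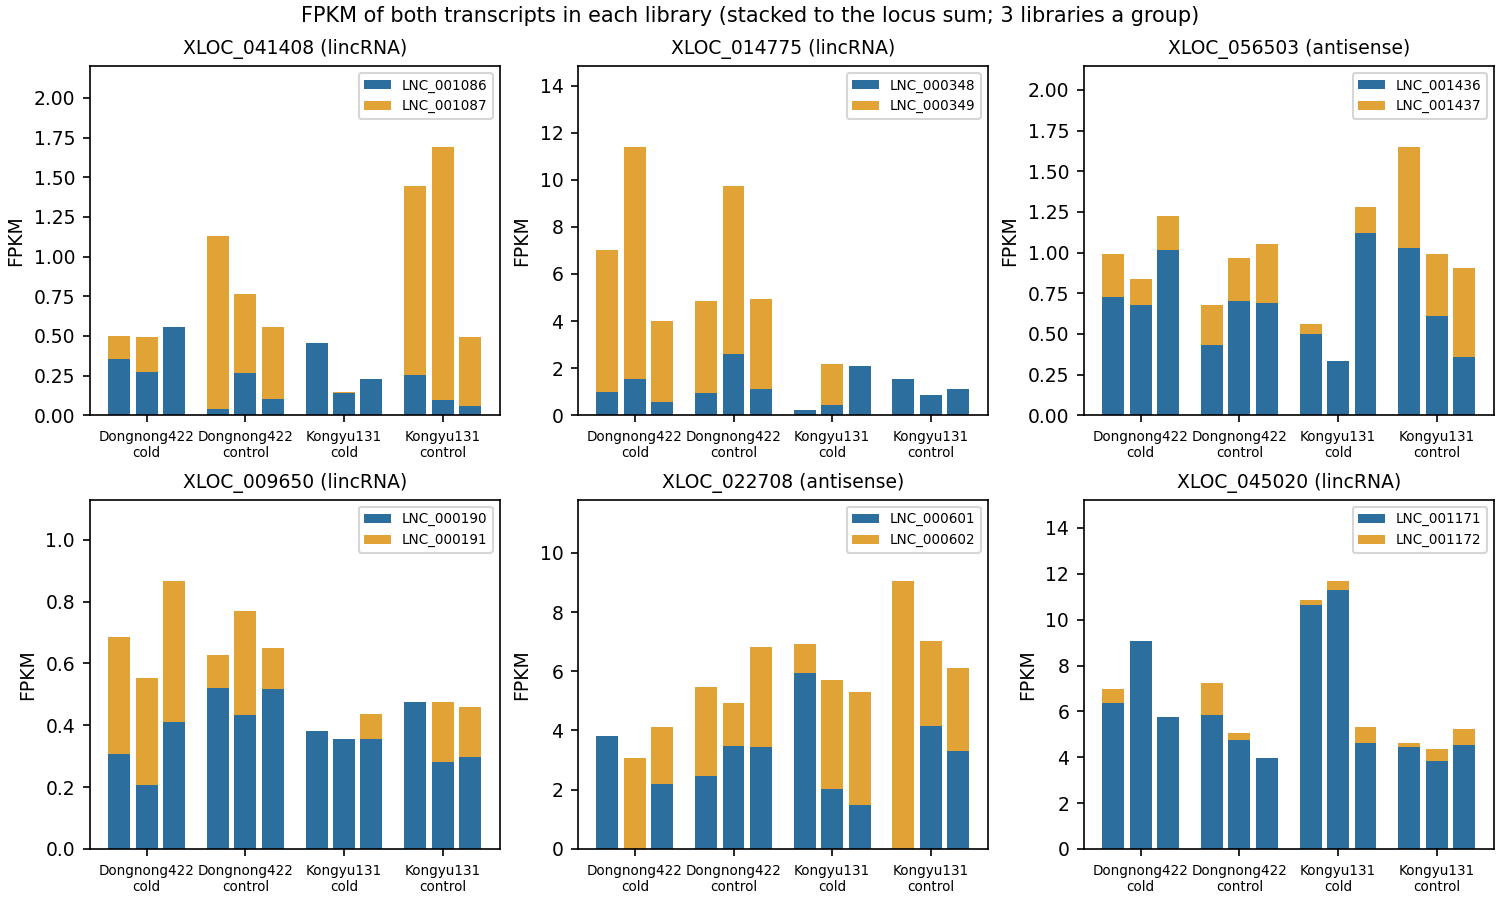
Bars show FPKM (y axis) in each of the 3 libraries of the 4 groups (x axis), with both transcripts of a locus stacked to the locus sum, for 6 loci. In XLOC_041408 the blue transcript, LNC_001086, is the larger part in the 6 cold libraries and the smaller part in the 6 control libraries, whereas in XLOC_022708 the larger part changes within groups and in XLOC_045020 it is LNC_001171 in every library.

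Because leaders changed within groups, the agreement between libraries was measured as the percentage of loci in which 2 libraries had the same leading transcript. Libraries that differed in both cultivar and treatment agreed in 66.9% of loci on average over 18 pairs. Pairs from different cultivars under the same treatment agreed in 69.3%, and pairs from different treatments of the same cultivar in 71.5% (18 pairs each). Pairs within a group agreed in 71.7% of loci, with single pairs between 63.5% and 77.3% (12 pairs). So a cold and a control library of a cultivar agreed on the leader about as often as 2 libraries of a group. The pairs share libraries, and these averages are a description with no test.

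The averages by class were further apart for lincRNA loci. For lincRNAs, agreement was 65.1% across both factors, 68.7% across cultivars, 73.6% across treatments and 75.1% within groups. For antisense loci the 4 averages were 68.3%, 69.7%, 70.1% and 69.2%. The 75.1% pools unlike cultivars: lincRNA pairs within a group agreed in 73.7% to 89.2% of loci in Dongnong422 and 55.6% to 77.1% in Kongyu131. All 3 libraries of a group had the same leader in 54 of 86 loci in Dongnong422 cold, 55 of 88 in Dongnong422 control, 43 of 85 in Kongyu131 cold and 46 of 84 in Kongyu131 control, among loci listed in all 3. In the same order, these counts were 25 of 36, 28 of 37, 17 of 36 and 21 of 35 for lincRNA loci. For antisense loci they were 29 of 50, 27 of 51, 26 of 49 and 25 of 49.

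**Figure D3:**
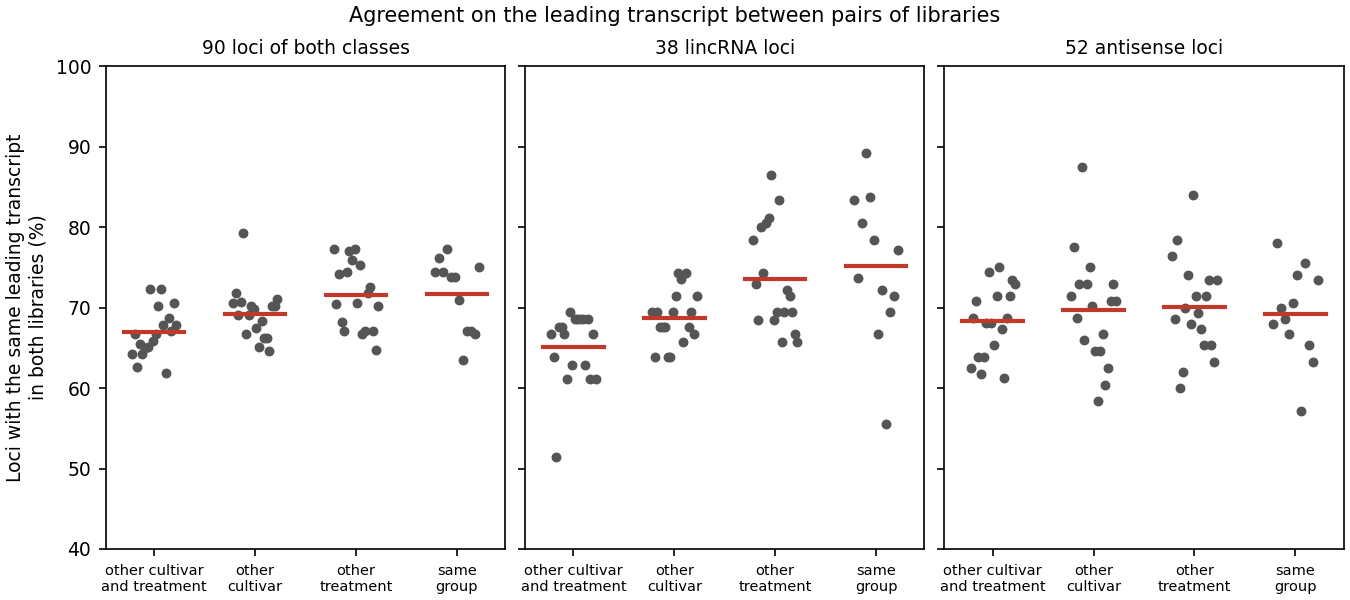
Each point is a pair of libraries, the y axis the percentage of loci with the same leading transcript in both, and the x axis whether the pair differs in cultivar and treatment, cultivar, treatment or neither; red bars are means. For all 90 loci the 4 means lie between 66.9% and 71.7%, and the points of the 4 kinds of pair overlap.

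The median share of the leading transcript, taken in each library over the 90 loci, averaged 72.7 ± 2.40% in Dongnong422 cold, 71.3 ± 5.62% in Dongnong422 control, 75.3 ± 2.50% in Kongyu131 cold and 72.3 ± 2.15% in Kongyu131 control (SD, n = 3 each). Over both classes, the values of cold and control libraries overlapped in both cultivars. In antisense loci they averaged 72.8 ± 3.75% in Dongnong422 cold and 70.9 ± 5.30% in Dongnong422 control, and 75.9 ± 2.77% in Kongyu131 cold and 67.7 ± 2.07% in Kongyu131 control. The Kongyu131 groups did not overlap here, with 73.3% as the lowest cold and 70.0% as the highest control library, and the Dongnong422 groups did. In lincRNA loci they averaged 69.5 ± 3.34% in Dongnong422 cold and 71.7 ± 7.48% in Dongnong422 control, and 74.2 ± 2.59% in Kongyu131 cold and 76.7 ± 3.68% in Kongyu131 control, with overlap in both cultivars. These medians over loci are a description with no test. The locus sum was the steadier quantity by the median, though not in every locus. On the log2(FPKM + 0.1) scale the within-group SD had a median of 0.401 for the sum, 0.483 for the leading transcript and 0.704 for the other transcript. The sum's SD was below that of the leading transcript in 63 of the 90 loci, and below those of both transcripts in 51. The sum contains both transcripts, so a smaller SD can come from adding them alone, and these SDs are a description.

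Whether the division itself shifted with cold or cultivar was tested on the log2 ratio of the transcript with the lower identifier number to the other, each plus 0.1 FPKM, with limma over all 94 loci of 2 transcripts that reached 0.5 FPKM, the 4 of mixed class included. A locus was called where p, two-sided and adjusted by the Benjamini-Hochberg method, was under 0.05. Averaged over the cultivars, the ratio differed between cold and control in 2 of the 90 loci. Over all 94 loci tested, 2.13% were called, which are these same loci. An unadjusted p under 0.05 was found in 11 of the 90, and in 11 of all 94. The 2 calls became 1 without any single library other than Kongyu131 control replicates 1 and 2, without either of which there were 3. Cold effects on the ratio differed between the cultivars in 0 of the 90 loci (limma, background 0%), of which 7 had an unadjusted p under 0.05 (7 of all 94).

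The lincRNA locus XLOC_041408 changed its leading transcript with cold in both cultivars. LNC_001086 had 0.353, 0.270 and 0.556 FPKM in Dongnong422 cold, against 0.0400, 0.268 and 0.105 FPKM in Dongnong422 control libraries. LNC_001087 had 0.149 and 0.224 FPKM and a value under 0.001 in Dongnong422 cold, against 1.09, 0.494 and 0.451 FPKM in Dongnong422 control libraries. The 2 groups of Dongnong422 did not overlap in either transcript. In Kongyu131, LNC_001086 had 0.452, 0.143 and 0.228 FPKM in cold, against 0.256, 0.0958 and 0.0605 FPKM in control libraries, and these ranges overlapped. LNC_001087 was under 0.001 FPKM in all 3 Kongyu131 cold libraries, against 1.19, 1.60 and 0.434 FPKM in Kongyu131 control libraries. So LNC_001086 was the higher transcript in 6 of 6 cold libraries and LNC_001087 in 6 of 6 control libraries.

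The ratio of LNC_001086 to LNC_001087 was higher in cold by 3.52 on the log2 scale (SE 0.552, limma adjusted p = 0.00505). Within Dongnong422 the difference was 2.99 (adjusted p = 0.132), where 0 of the 90 loci were called (0% of the 94), and within Kongyu131 it was 4.05 (adjusted p = 0.0287), where 2 were called (2.13% of the 94); the difference between these effects did not pass the test (adjusted p = 0.873). The size depends on the pseudocount, being 1.01 with 1 FPKM and 6.22 with 0.01 FPKM, and the call was kept in 21 of 21 alternative settings. LNC_001087 fell in cold by 2.63 (SE 0.385, adjusted p = 0.00366), whereas the difference of LNC_001086 was 0.89 (adjusted p = 0.113). The locus sum fell as well, by 1.13 (SE 0.312, adjusted p = 0.0287). All values of both transcripts were under 2 FPKM.

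The antisense locus XLOC_056503 was the other locus called. Its LNC_001437 had 0.262, 0.160 and 0.213 FPKM in Dongnong422 cold, against 0.246, 0.265 and 0.360 FPKM in Dongnong422 control, and in Kongyu131 it had 0.0580 FPKM, under 0.001 and 0.161 FPKM in cold, against 0.623, 0.384 and 0.548 FPKM in control libraries. The Kongyu131 groups did not overlap, and the Dongnong422 groups did. LNC_001436, the leading transcript, overlapped between cold and control in both cultivars. The ratio was higher in cold by 1.27 (SE 0.287, adjusted p = 0.0477), but the call was kept in 3 of 21 alternatives, with adjusted p between 0.0327 and 0.181, so it rests on the particular settings and libraries. Without Dongnong422 control replicate 1, for example, the adjusted p was 0.140. LNC_001437 fell in cold by 1.13 (SE 0.275, adjusted p = 0.0258), and the locus sum differed by -0.30 (adjusted p = 0.488).

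Between the cultivars the ratio was called in 5 of the 90 loci, and 5.32% of the 94 tested were called, the same 5. In 4 of them the ratio was not a division in both cultivars. XLOC_007274 and XLOC_023039 were listed at 0 for both transcripts in all 6 Kongyu131 libraries, XLOC_014796 was listed at 0 for both in all 6 Dongnong422 libraries, and XLOC_008199 was listed at 0 in 4 of 6 Kongyu131 libraries and reached 0.340 FPKM at most in the other two. For these the ratio in 1 cultivar is set by the pseudocount, so their calls show that the locus was unlisted there and not that the leader differed. The call of XLOC_023039 was kept in 11 of 20 alternatives; the pseudocount of 0.01 FPKM lost it, as did leaving out any 1 library other than Dongnong422 cold replicates 2 and 3, Dongnong422 control replicate 2 and Kongyu131 cold replicate 3, with adjusted p up to 0.0820. That of XLOC_008199 was lost with a pseudocount of 0.01 FPKM (adjusted p = 0.129). With the fit limited to loci that reached 0.1 FPKM in at least 2 libraries of each group, an alternative added after the data were seen, 1 locus was called.

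That locus was the lincRNA locus XLOC_014775, in which the cultivars had different leading transcripts. LNC_000349 had 6.06, 9.85 and 3.45 FPKM in Dongnong422 cold, against 0, 1.75 and 0 FPKM in Kongyu131 cold libraries. In control libraries it had 3.91, 7.10 and 3.82 FPKM in Dongnong422 and was listed at 0 in all 3 of Kongyu131. The other transcript, LNC_000348, was listed in all 12 libraries, with a mean of 1.29 ± 0.726 FPKM in Dongnong422 and 1.04 ± 0.695 FPKM in Kongyu131 (SD, n = 6 each). LNC_000349 was thus the higher transcript in 6 of 6 Dongnong422 libraries, and in Kongyu131 it was the higher one in 1 cold library and in no other.

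The ratio of LNC_000348 to LNC_000349 was lower in Dongnong422 by 4.63 on the log2 scale (SE 0.812, limma adjusted p = 0.00435); with a pseudocount of 1 FPKM it was -2.24 and with 0.01 FPKM -7.32. The call was kept in 22 of 22 alternatives. LNC_000349 was higher in Dongnong422 (adjusted p = 0.000106) and LNC_000348 differed by 0.42 (adjusted p = 0.622). The locus sum averaged 6.99 ± 2.99 FPKM in Dongnong422 and 1.33 ± 0.751 FPKM in Kongyu131, a difference of 2.46 (SE 0.490, adjusted p = 0.00298), so both the sum and the division differed at this locus.

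Group means gave many more exchanges of the leader than the libraries bore out. Comparing group means, the leading transcript differed between Dongnong422 cold and control in 17 of the 90 loci and between Kongyu131 cold and control in 19. Between Dongnong422 and Kongyu131 it differed in 20 loci in cold and in 22 in control. Few of these exchanges held in every library of both groups. They were XLOC_041408 and XLOC_009650 between Dongnong422 cold and control, and XLOC_041408 between Kongyu131 cold and control. Between the cultivars they were XLOC_009650 in cold, and XLOC_014775, XLOC_046728 and XLOC_012801 in control. Below 0.5 FPKM, where the ratio was not tested, the exchange held in every library in the antisense loci XLOC_022672, between Kongyu131 cold and control, and XLOC_040155, between Dongnong422 cold and control and between the cultivars in control.

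XLOC_009650, a lincRNA locus, had a leader in Dongnong422 cold libraries that differed from the other groups. Its LNC_000191 had 0.378, 0.346 and 0.458 FPKM in Dongnong422 cold, against 0.107, 0.336 and 0.131 FPKM in Dongnong422 control libraries. LNC_000190 had 0.308, 0.206 and 0.411 FPKM in Dongnong422 cold, against 0.521, 0.433 and 0.517 FPKM in Dongnong422 control libraries. The groups did not overlap, yet the ratio's cold difference in Dongnong422 of -1.40 did not pass the test (adjusted p = 0.414), nor did the difference of cold effects of -2.17 (adjusted p = 0.597). In XLOC_046728, LNC_001195 had 0.811, 0.865 and 0.691 FPKM in Dongnong422 control, against 0.284, 0.623 and 0.384 FPKM in Kongyu131 control libraries. LNC_001194 had 0.636, 0.721 and 0.638 FPKM in Dongnong422 control, against 1.41, 0.748 and 0.904 FPKM in Kongyu131 control libraries. Neither transcript overlapped between these groups. The ratio's cultivar difference in control did not pass the test for XLOC_046728, at -1.30 (adjusted p = 0.371), or for XLOC_012801, at -0.80 (adjusted p = 0.714). Averaged over the treatments it was -0.70 (adjusted p = 0.354) for XLOC_046728 and -1.06 (adjusted p = 0.319) for XLOC_012801. In control the ratio was called in 4 of the 90 loci, XLOC_007274, XLOC_014775, XLOC_014796 and XLOC_023039 (4.26% of the 94).

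Locus sums were mostly lower in cold where they changed. The sum, tested as log2(FPKM + 0.1) over all 1036 loci with a mean of at least 0.1 FPKM, which all 106 reached, was called in 18 loci, 17.0% of the 106, against 21.7% of all loci tested. Of the 18, 2 rose and 16 fell, while 7.14% of all loci rose and 14.6% fell. The median difference of the 106 sums was -0.31, against -0.14 over all loci. The split depends on scaling: with median-ratio scaling 11 rose and 13 fell, and with quantile normalization 11 rose and 8 fell, and the median difference over all loci was -0.02 with the first and -0.00 with the second. For the 106 loci it was -0.18 and -0.14 with these scalings. By class, 11 of 44 lincRNA sums were called (2 rose, 9 fell) and 7 of 62 antisense sums (all 7 fell), against 130 of 604 lincRNA loci and 93 of 419 antisense loci in the whole table. The count is sensitive to single libraries, being 11 without Dongnong422 cold replicate 1, Dongnong422 cold replicate 2 or Kongyu131 cold replicate 2, and 10 without Kongyu131 control replicate 2.

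The largest fall was in the lincRNA locus XLOC_032368. Its sum was 0.351, 0.0688 and 0.362 FPKM in Dongnong422 cold, against 3.17, 0.876 and 1.35 FPKM in Dongnong422 control libraries. In Kongyu131 it was 0.178, 0.242 and 0.894 FPKM in cold, against 2.84, 3.48 and 6.77 FPKM in control libraries. Cold and control did not overlap in either cultivar, and the sum fell by 2.77 (SE 0.436, limma adjusted p = 0.00263). It was also the locus in which both transcripts were called in cold: LNC_000863 fell by 2.82 (SE 0.496, adjusted p = 0.00550) and LNC_000864 by 2.19 (SE 0.413, adjusted p = 0.00855). Their ratio's cold difference of -0.63 did not pass the test (adjusted p = 0.627).

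XLOC_016493 and XLOC_048341 were lower lincRNA loci. The sum of XLOC_016493 was 0.0254, 0.0687 and 0.0818 FPKM in Dongnong422 cold, against 0.602, 0.358 and 0.611 FPKM in Dongnong422 control, and 0.161, 0.120 and 0.225 FPKM in Kongyu131 cold, against 0.610, 0.490 and 0.447 FPKM in Kongyu131 control. The groups did not overlap, and the sum fell by 1.59 (SE 0.214, adjusted p = 0.00256). In XLOC_048341 the sum averaged 0.140 ± 0.0710 FPKM in Dongnong422 cold and 0.525 ± 0.171 FPKM in Dongnong422 control libraries, and 0.156 ± 0.137 FPKM in Kongyu131 cold and 0.904 ± 0.635 FPKM in Kongyu131 control libraries (SD, n = 3 each). It fell by 1.64 (SE 0.437, adjusted p = 0.0255), a call kept in 13 of 19 alternatives. It was lost without Dongnong422 cold replicate 1, Dongnong422 control replicate 3 or Kongyu131 control replicate 1 or 3, at adjusted p between 0.0516 and 0.0567. Quantile normalization (limma adjusted p = 0.0577) and a pseudocount of 0.01 FPKM (0.0593) lost it too.

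The 2 sums that rose were of lincRNA loci, XLOC_047016 and XLOC_032858. XLOC_047016 had 1.46, 1.52 and 1.09 FPKM in Dongnong422 cold, against 0.490, 0.296 and 0.201 FPKM in Dongnong422 control libraries. In Kongyu131 it had 0.426, 0.516 and 0.492 FPKM in cold, against 0.468, 0.186 and 0.0962 FPKM in control libraries. The Dongnong422 groups did not overlap and the Kongyu131 groups did. The sum rose by 1.33 (SE 0.272, adjusted p = 0.00883), through LNC_001206, which rose by 1.75 (SE 0.282, adjusted p = 0.00366). The second transcript, LNC_001207, was under 0.001 FPKM in 11 of the 12 libraries. The exception was Kongyu131 control replicate 1, where nearly all of the 0.468 FPKM was that of LNC_001207. The overlap of the Kongyu131 sums rests on that library, and LNC_001206 did not overlap between the treatments in either cultivar. XLOC_032858 rose by 0.71 (SE 0.189, adjusted p = 0.0255), a call lost without Dongnong422 cold replicate 1 (adjusted p = 0.0537), Kongyu131 cold replicate 2 (0.0574) or Kongyu131 control replicate 2 (0.0576). A pseudocount of 1 FPKM lost that call too (limma adjusted p = 0.0514). Sizes of these low loci depend on the pseudocount: with 1 FPKM the differences were -1.47 for XLOC_032368, -0.45 for XLOC_016493, -0.54 for XLOC_048341, 0.54 for XLOC_047016 and 0.25 for XLOC_032858.

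**Figure D4:**
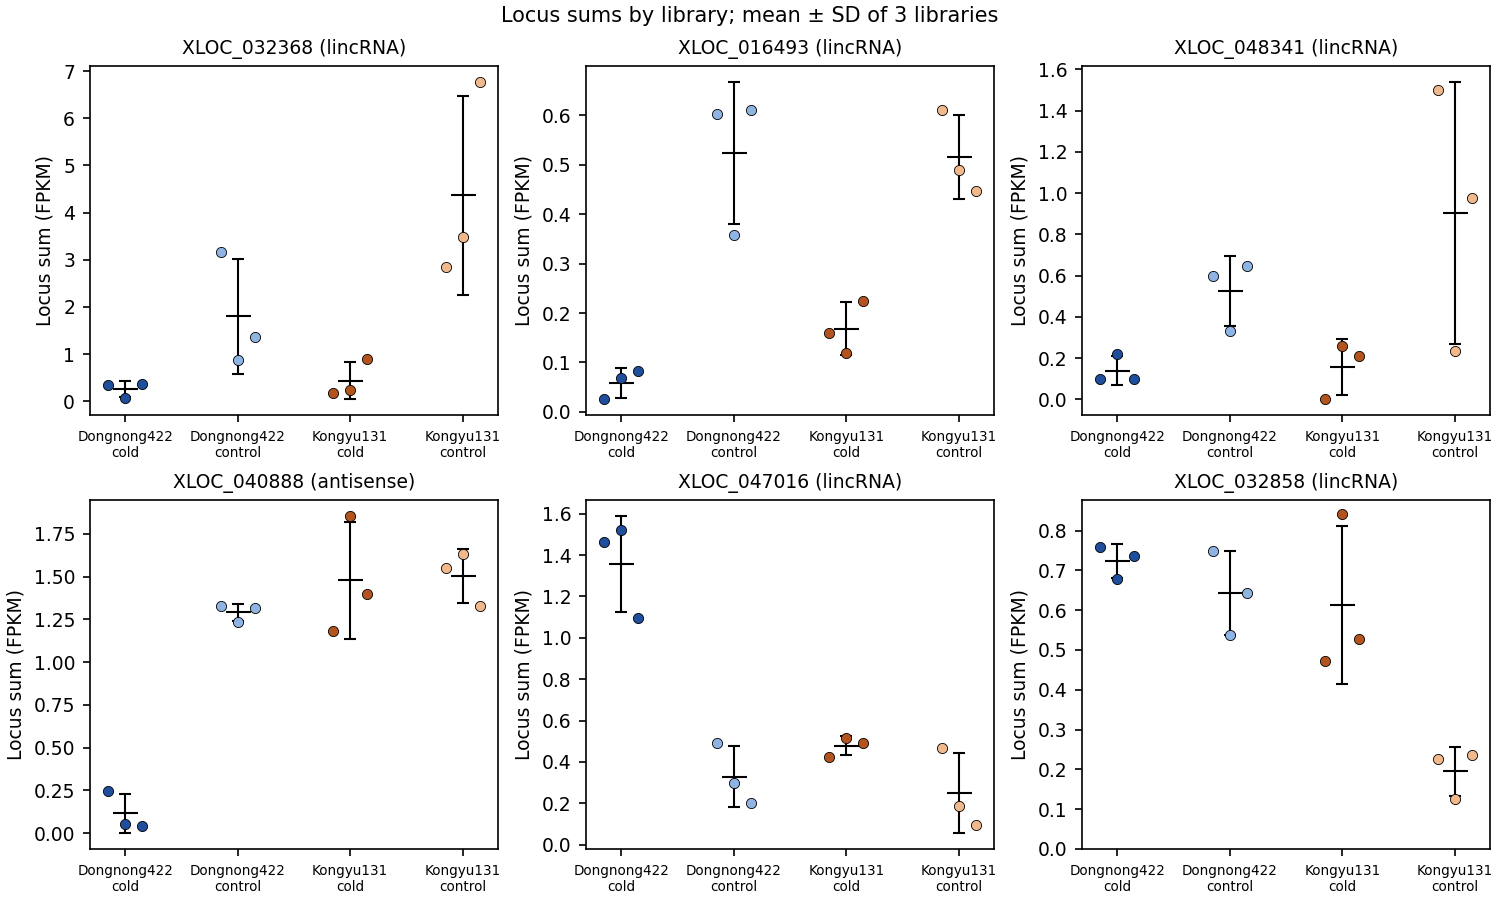
Points are the locus sums in FPKM (y axis) of the 3 libraries in each of the 4 groups (x axis), with bars for the mean and SD, for 6 loci called in cold. XLOC_032368 and XLOC_016493 are lower in every cold library of both cultivars, and XLOC_040888 is low in Dongnong422 cold, at 0.0425 to 0.248 FPKM, and above 1 FPKM in the other groups.

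The antisense locus XLOC_040888 was the 1 locus of the 106 whose cold effect on the sum differed between the cultivars, with 1.64% of all loci called. Its sum was 0.248, 0.0564 and 0.0425 FPKM in Dongnong422 cold, against 1.33, 1.24 and 1.31 FPKM in Dongnong422 control libraries. In Kongyu131 it was 1.18, 1.86 and 1.40 FPKM in cold, against 1.55, 1.63 and 1.33 FPKM in control libraries. Dongnong422 cold lay below all other libraries, and the Kongyu131 groups overlapped. The cold effect was -2.81 in Dongnong422 (SE 0.324, adjusted p = 0.00142) and -0.04 in Kongyu131, and their difference was -2.77 (SE 0.459, adjusted p = 0.0156). The difference was -1.02 with a pseudocount of 1 FPKM. Its call was lost without Kongyu131 cold replicate 2 (adjusted p = 0.0521) or Kongyu131 control replicate 3 (adjusted p = 0.0559), leaving 0 loci called. There were 3 called loci without Dongnong422 cold replicate 3 or Kongyu131 cold replicate 3, and 2 without Dongnong422 control replicate 3.

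Both transcripts of XLOC_040888 were low in Dongnong422 cold. LNC_001077 had 0.248, 0.0564 and 0.0425 FPKM there, against 1.03, 0.541 and 0.966 FPKM in Dongnong422 control libraries, and LNC_001078 was under 0.001 FPKM in all 3 cold libraries, against 0.293, 0.695 and 0.348 FPKM in the controls. Taken singly, neither transcript's difference of cold effects passed the test, at -2.35 (adjusted p = 0.0683) for LNC_001077 and -2.19 (adjusted p = 0.305) for LNC_001078. Within the cultivars, 17 of 106 sums were called for cold in Dongnong422 (12.8% of all loci) and 8 of 106 in Kongyu131 (12% of all loci). These counts are not a test of a difference.

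Cultivar differences in the sum were about as frequent as in the whole table. The sum was called in 24 of the 106 loci, against 22% of all loci, with 14 higher and 10 lower in Dongnong422, against 12.1% and 9.94% of all loci. With quantile normalization the split was 11 higher and 14 lower. In the 44 lincRNA loci 8 were higher and 2 lower, against 88 higher and 63 lower among all 604 lincRNA loci tested. In the 62 antisense loci 6 were higher and 8 lower, against 35 higher and 39 lower among all 419. The difference was called in 23 sums in cold (22.8% of all loci) and in 15 in control (15.3% of all loci).

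The most marked cultivar differences were loci listed in 1 cultivar only. Both transcripts were listed at 0 in all 6 Kongyu131 libraries in the lincRNA locus XLOC_007274 and the antisense loci XLOC_018670 and XLOC_023039. XLOC_007274 had sums between 59.5 and 101 FPKM in Dongnong422, the highest of the 106 loci. XLOC_018670 had between 35.2 and 79.0 FPKM there, and XLOC_023039 between 1.86 and 5.44 FPKM. The converse held for the antisense loci XLOC_014796 and XLOC_028004 and the lincRNA locus XLOC_028006, listed at 0 in all 6 Dongnong422 libraries. In Kongyu131 the sum of XLOC_014796 ran between 1.81 and 5.91 FPKM, that of XLOC_028006 between 0.533 and 1.16 FPKM and that of XLOC_028004 between 0.586 and 0.822 FPKM. Of their transcripts in Kongyu131, LNC_000351 ran between 1.48 and 4.99 FPKM and LNC_000350 between 0.312 and 1.03 FPKM in XLOC_014796, LNC_000743 of XLOC_028006 between 0.350 and 0.958 FPKM, and LNC_000741 of XLOC_028004 between 0.0965 and 0.822 FPKM. A value of 0 may be a failed estimate, and no fold is given for these 6 loci.

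XLOC_008199 and XLOC_014251 came close to that pattern. XLOC_008199 had 43.0, 51.8 and 33.2 FPKM in Dongnong422 cold and 41.1, 47.6 and 55.2 FPKM in Dongnong422 control libraries, against 0.340, 0.228 and 0 FPKM in Kongyu131 cold and 0 in all 3 Kongyu131 control libraries. Nearly all of its FPKM was that of LNC_000168, 96.9% on the mean. XLOC_014251, a lincRNA locus, averaged 1.22 ± 0.510 FPKM in Dongnong422 and 0.0136 ± 0.0212 FPKM in Kongyu131 (SD, n = 6 each).

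**Figure D5:**
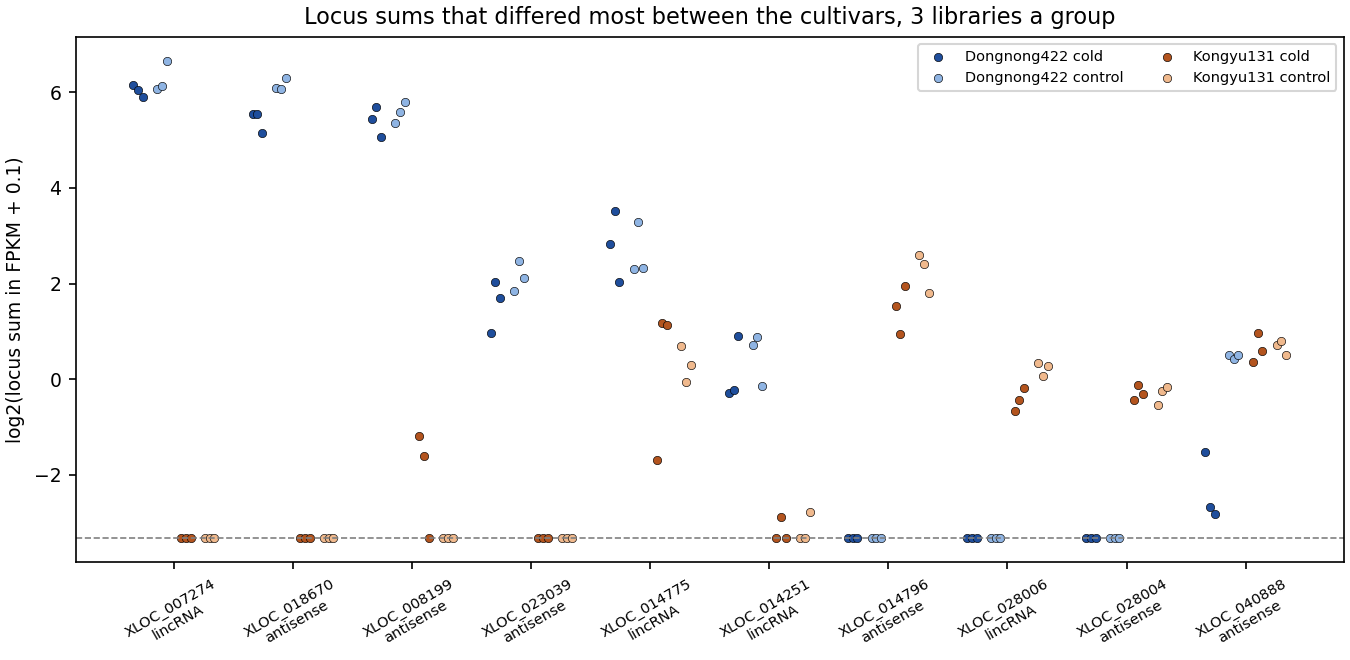
The y axis is log2(locus sum in FPKM + 0.1), the x axis 10 loci with large cultivar differences, and each point a library, coloured by group (3 libraries each). The dashed line is a sum of 0: XLOC_007274, XLOC_018670 and XLOC_023039 lie on it in all 6 Kongyu131 libraries, and XLOC_014796, XLOC_028006 and XLOC_028004 in all 6 Dongnong422 libraries.

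Loci listed in 1 cultivar still had 2 transcripts there, and cold left the leader the same in some of them. In Dongnong422, LNC_000143 of XLOC_007274 had 50.8, 44.3 and 49.0 FPKM in cold, against 55.4, 57.8 and 82.8 FPKM in control libraries. LNC_000144 had 19.9, 21.8 and 10.5 FPKM in cold, against 11.3, 12.3 and 18.3 FPKM in control, so LNC_000143 led in all 6. In XLOC_018670 the leader was less fixed: LNC_000490 had 14.5, 14.5 and 15.4 FPKM in Dongnong422 cold, against 38.4, 25.1 and 42.3 FPKM in Dongnong422 control, and LNC_000491 had 31.8, 32.1 and 19.8 FPKM in cold, against 29.5, 41.8 and 36.7 FPKM in control. LNC_000490 did not overlap between the treatments, and LNC_000491 did. The fall of LNC_000490, averaged over a cultivar in which it was listed at 0, was 0.61 (SE 0.168, limma adjusted p = 0.0422). The 6 Kongyu131 libraries at 0 have no spread, yet they enter the estimate of spread that all groups share. The ratio's cold difference in Dongnong422 of -0.83 did not pass the test (limma adjusted p = 0.444).

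Testing transcripts singly and testing sums named partly different loci. Of the 212 transcripts, 204 had a mean of at least 0.1 FPKM and were tested. In cold 17 were called (3 rose, 14 fell), with 12.6% called among all 1441 transcripts tested (3.89% rose, 8.74% fell). With median-ratio scaling 5 rose and 6 fell, and with quantile normalization 4 rose and 5 fell. The count without 1 library ran between 6 and 16, and was 6 without Dongnong422 cold replicate 2 or Kongyu131 cold replicate 2. It was 9 without Dongnong422 control replicate 1 or 3 or Kongyu131 control replicate 2, and 10 without Dongnong422 cold replicate 1 or Kongyu131 control replicate 3. The 17 transcripts belonged to 16 loci. In 11 of these the sum was called too, in 5 it was not, and 7 loci were called by their sum with neither transcript called. Of the 18 loci called by their sum, 14 had both transcripts tested. Among the 7, XLOC_015598 and XLOC_045113 each had a transcript with a mean under 0.1 FPKM, which was not tested. The fits were also adjusted separately, with 21.7% of all loci and 12.6% of all transcripts called.

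XLOC_012500, an antisense locus, was 1 of those 7. Its sum was 2.14, 2.65 and 3.08 FPKM in Dongnong422 cold, against 4.74, 7.89 and 9.56 FPKM in Dongnong422 control libraries, and it overlapped between the treatments in Kongyu131. The sum fell by 0.83 (SE 0.250, adjusted p = 0.0386). XLOC_043299, a lincRNA locus, was 1 of the 5. LNC_001123 had 0.904, 1.06 and 0.804 FPKM in Dongnong422 cold, against 0.289, 0.478 and 0.424 FPKM in Dongnong422 control, while LNC_001122 had 0.484, 0.583 and 1.01 FPKM in cold, against 0.438, 0.817 and 0.832 FPKM in control. LNC_001123 did not overlap between these groups and LNC_001122 did. LNC_001123 rose in cold by 0.72 (SE 0.192, adjusted p = 0.0353). That call was kept in 10 of 19 alternatives, with adjusted p up to 0.0812, reached without Dongnong422 cold replicate 2; the sum's difference was 0.35 (adjusted p = 0.216).

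XLOC_056669, a lincRNA locus with an even mean division, showed a fall in 1 of its transcripts. LNC_001446 had 0.205, 0.126 and 0.349 FPKM in Dongnong422 cold, against 0.866, 0.597 and 0.621 FPKM in Dongnong422 control libraries, and 0.688, 0.682 and 0.556 FPKM in Kongyu131 cold, against 1.55, 1.80 and 1.35 FPKM in Kongyu131 control libraries. Cold and control did not overlap in either cultivar, and LNC_001446 fell by 1.24 (SE 0.210, adjusted p = 0.00481). LNC_001447 overlapped between the treatments in both cultivars. The sum fell by 0.61 (SE 0.160, adjusted p = 0.0243), and the ratio's cold difference of -1.06 did not pass the test (adjusted p = 0.181).

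The remaining named falls and rises were less firm. LNC_000530 of the lincRNA locus XLOC_020128 fell by 1.65 (SE 0.478, adjusted p = 0.0462), a call kept in 4 of 19 alternatives. LNC_001367 of the antisense locus XLOC_053674 rose by 0.75 (SE 0.217, adjusted p = 0.0444), a call kept in 7 of 20 alternatives. Both were lost without most single libraries, with adjusted p up to 0.0954 for LNC_000530 (without Dongnong422 control replicate 1) and up to 0.101 for LNC_001367 (without Kongyu131 control replicate 2). With a pseudocount of 0.01 FPKM the adjusted p of LNC_000530 was 0.123. With a pseudocount of 1 FPKM, the differences of the most changed transcripts were -1.04 for LNC_000863, -0.97 for LNC_000864, -0.79 for LNC_001087, -0.42 for LNC_000530 and 0.63 for LNC_001206.

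For cultivar, 31 of the 204 transcripts were called (20 higher and 11 lower in Dongnong422), with 17.9% called among all transcripts (9.37% higher, 8.54% lower). Quantile normalization gave 18 higher and 18 lower. They belonged to 24 loci, of which 19 were also called by their sum, and in 7 loci both transcripts were called. An example with 1 called transcript is LNC_000019 of the lincRNA locus XLOC_000862, with a mean of 4.83 ± 1.71 FPKM in Dongnong422 and 2.28 ± 1.24 FPKM in Kongyu131 (SD, n = 6 each). It was higher in Dongnong422 by 1.15 (SE 0.262, adjusted p = 0.00826). The difference of cold effects was called in 0 of the 204 transcripts (limma, 0.416% of all transcripts). An unadjusted p under 0.05 was found in 25 of the 204, against 221 of all 1441 transcripts tested. This difference was called in 1 of the transcripts without Dongnong422 cold replicate 1 or Kongyu131 cold replicate 3.

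The fitted differences of the 2 transcripts of a locus, most of which did not pass the test, had unequal signs in many loci. In the 98 loci with both transcripts tested, the cold differences had the same sign in 58 and the cultivar differences in 52. Among loci called by their sum, the signs were the same in 9 of 14 for cold and in 17 of 20 for cultivar. The sum contains both transcripts, so these counts are a description.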

How the data were processed

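The 12 leaf libraries were strand-specific and made after removal of ribosomal RNA, per the labels' protocols. TopHat2 2.0.9 and Cufflinks 2.1.1 were used, per the submitters' processing notes; their settings, the genome build, the annotation and how lncRNAs were classed are not stated in the sources used here. Each deposited table pairs transcripts with a locus, a class and the authors' FPKM value. Since FPKM are not counts, depth is unknown and counting intervals cannot be set. Use of the strand in assigning reads is not stated, so an antisense value could hold reads from the gene it faces.

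Members and lists were chosen with earlier results of these data known. Values were used as deposited. Limma 3.58.1 (R 4.3.3), with 4 group means, all 12 libraries, moderated variances and a mean trend, was fitted to 3 measures: the log2 ratio of both transcripts over 94 loci (mean sum at least 0.5 FPKM), the log2 locus sum over 1036 loci and the log2 FPKM over 1441 transcripts (mean at least 0.1 FPKM), each with a pseudocount of 0.1 FPKM, which understates changes of low features. Differences are cold minus control and Dongnong422 minus Kongyu131, averaged over the other factor, and the difference of the cold effects (Dongnong422 minus Kongyu131). P-values were adjusted by Benjamini-Hochberg over all features of a fit and contrast. The scripts were tested on simulated data.

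Named were, for each fit and contrast, up to 4 called rises and 4 called falls; per class the 4 highest loci and, at 1 FPKM or more, the 3 most even and 3 most one-sided; and every locus whose leader differed between groups in every library. Any other locus or transcript was picked after its values were seen. Alternatives were quantile normalization, median-ratio scaling, a variance model without trend, pseudocounts of 1 and 0.01 FPKM, a filter at a mean of 1 FPKM or none, a replicate block, an arcsine share for the ratio, leaving out each library, and, added after the data were seen, loci listed in all 4 groups. No 2 libraries held identical values.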

Additional observations from a re-analysis of the deposited data

Results flagged for a closer look

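The cold effect on the locus sum of the antisense locus XLOC_040888 differed between the cultivars by a test of the difference itself, -2.77 on the log2 scale (Dongnong422 minus Kongyu131, limma adjusted p = 0.0156). The sum was lower in 3 of 3 Dongnong422 cold libraries than in every Dongnong422 control library, and the Kongyu131 groups overlapped. The call was kept in 18 of 20 alternatives.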

How the results depend on the processing

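No called difference of a named locus or transcript changed sign in the alternatives run, but the split of sum calls turned with quantile normalization, to 11 higher and 8 lower for cold (2 and 16 unscaled) and to 11 higher and 14 lower for cultivar (14 and 10 unscaled). The count of ratio calls in cold, 2, was 1 with a pseudocount of 0.01 FPKM, no filter, quantile normalization, no variance trend, the arcsine share or loci listed in all 4 groups, and 0 with a mean of at least 1 FPKM, which removes XLOC_041408 and XLOC_056503. Ratio calls for cultivar, 5, were 3 at a pseudocount of 0.01 FPKM and 1 under the arcsine share or loci listed in all 4 groups. With a mean of at least 1 FPKM, which leaves fewer loci, sum calls were 9 for cold and 12 for cultivar, and transcript calls 3 for cold and 14 for cultivar. Transcript calls in cold, 17, were 10 with a pseudocount of 0.01 FPKM, 11 with median-ratio scaling and 9 with quantile normalization; the cause was not tested. Without 1 library, the counts ran as follows. Ratio calls were 1 to 3 for cold, 4 to 6 for cultivar and 0 for the difference. Sum calls were 10 to 19 for cold, 16 to 25 for cultivar and 0 to 3 for the difference. Transcript calls were 6 to 16 for cold, 28 to 32 for cultivar and 0 to 1 for the difference. Loci with a constant leader, 15 with all 12 libraries, numbered 16 to 18, a count that leaving out a library cannot lower. Samples with the same replicate number did not deviate together (correlations between -0.112 and 0.0757, against -0.119 to 0.109 for other pairs). These correlations show no pairing by number, but they cannot exclude a batch that such samples share. With a replicate block, ratio calls in cold were 1 and transcript calls in cold 7, and the other counts stayed within 1.5 times. For named loci and transcripts, 264 of 285 results of the other alternatives and 388 of 444 without 1 library kept their side of the threshold. Depth is unknown, so low FPKM limit every ratio.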
